A study of Homo sapiens with 24 samples.

Results

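A set of 9 genes of glucose sensing and fuel choice was followed over time in the human hepatoma line Huh7.5.1, which supports hepatitis C virus replication. Cells had received silymarin, a preparation from the seeds of milk thistle, or DMSO, the solvent. The genes are TXNIP, ARRDC4, PDK4, MLXIPL, MLX, KLF10, PKLR, SLC2A1 and SLC2A2. They were chosen by name, and all 9 were found among the 18274 genes measured, each by 1 probe set. The platform was the Affymetrix Human Gene 1.0 ST array, with 1 array for each of 24 total RNA samples. The DMSO groups hold 4 arrays at 4 h, 5 at 8 h and 5 at 24 h, and the silymarin groups hold 4, 3 and 3. All groups are the same line, the sample titles call every group free of virus, and the labels used here give no silymarin dose. Nothing in the labels places replicates in separate cultures, so each p-value measures only the spread between these samples, which may be technical.

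TXNIP is an arrestin-domain protein that binds thioredoxin and promotes removal of the glucose transporter GLUT1 from the cell surface. Its gene and that of its paralogue ARRDC4 are switched on when sugar phosphates build up in a cell, through the paired transcription factors MLXIP or MLXIPL (ChREBP) with their partner MLX. In hepatocytes MLXIPL also drives PKLR, the liver pyruvate kinase, and KLF10, a repressor that responds to sugar and to TGF-beta. PDK4 is a kinase that shuts off the pyruvate dehydrogenase complex and is raised in fasting, when the liver burns fat. SLC2A1 encodes GLUT1, and SLC2A2 encodes GLUT2, the main glucose carrier of hepatocytes.

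The DNA element bound by these factor pairs is a doubled E-box, and it is shown here because TXNIP, ARRDC4 and PKLR are textbook carriers of it. RefSeq promoter windows (build GRCh38.p14, from 250 bases before to 50 bases after a start site, written 5′ to 3′ on the gene's strand) were matched by symbol for 8 of the 9 genes, in 10 windows. Both strands were searched for CACGTG, found in 7.26% of all 35116 windows, and for the doubled element CNCGNGNNNNNCNCGNG, found in 2.22% of them. Each arm of the doubled element also takes CACGTG, so both searches can overlap. Capitals mark the match. It lies at bases -88 to -72 from the start in TXNIP (chr1:145996530-145996829, minus strand), at -126 to -110 in 1 of the PKLR windows (chr1:155300903-155301202, minus strand), and in ARRDC4 (chr15:97960453-97960752, plus strand) the single E-box starts at -210.
TXNIP: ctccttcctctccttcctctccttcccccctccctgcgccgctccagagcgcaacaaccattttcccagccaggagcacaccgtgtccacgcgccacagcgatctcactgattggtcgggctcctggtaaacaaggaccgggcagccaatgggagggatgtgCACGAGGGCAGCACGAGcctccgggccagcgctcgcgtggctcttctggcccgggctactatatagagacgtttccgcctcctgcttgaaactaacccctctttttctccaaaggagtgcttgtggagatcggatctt
PKLR: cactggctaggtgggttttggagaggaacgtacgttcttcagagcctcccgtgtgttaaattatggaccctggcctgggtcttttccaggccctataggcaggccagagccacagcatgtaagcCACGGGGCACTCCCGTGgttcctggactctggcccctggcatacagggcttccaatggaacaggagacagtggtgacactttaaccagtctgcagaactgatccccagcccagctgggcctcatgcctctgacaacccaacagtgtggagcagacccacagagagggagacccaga
ARRDC4: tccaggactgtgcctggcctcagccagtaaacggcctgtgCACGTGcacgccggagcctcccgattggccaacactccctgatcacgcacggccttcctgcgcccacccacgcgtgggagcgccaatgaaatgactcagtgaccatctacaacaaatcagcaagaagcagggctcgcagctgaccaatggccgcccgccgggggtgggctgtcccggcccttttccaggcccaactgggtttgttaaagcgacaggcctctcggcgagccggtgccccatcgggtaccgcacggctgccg
The MLX promoter held 1 E-box, starting at base -50, and another PKLR window held 1 at -197. These matches describe letters in a window and were not tested as binding sites.

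Values are log2 expression, so a difference of 1 is a 2-fold change. Array medians lay between 7.04 and 7.18. The arrays did not form a single cloud within their groups: the stress gene DDIT4, an inhibitor of mTORC1, left a gap between 8.35 and 9.67, with 14 arrays below it and 10 above. The high-DDIT4 arrays were 2 of 4 DMSO and 1 of 4 silymarin arrays at 4 h, 3 of 5 and 2 of 3 at 8 h, and 1 of 5 and 1 of 3 at 24 h. No label names this division, which was noticed in the data. It followed the replicate number in part: all arrays numbered 2 were low, and those numbered 1 were high except DMSO at 24 h. Silymarin differences of the 9 genes are therefore given from all 24 arrays and with the side of the gap as a model term. The 14 hepatocyte markers measured had a mean level of 12.14 to 12.30 in every array, and all 14 lay above the median gene. Markers of other cell types above that median were 1 of 11 endothelial, 2 of 10 leukocyte, 0 of 10 fibroblast and stellate, and 2 of 6 cholangiocyte genes. In bulk RNA, fewer cells of a type and less RNA per cell cannot be told apart.

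TXNIP varied strongly between arrays of the same label and showed no detectable difference between silymarin and DMSO. At 4 h it read 6.82, 7.54, 7.49 and 6.81 in the DMSO arrays and 6.69, 6.92, 7.44 and 7.69 in the silymarin arrays. After 8 h it read 6.75, 7.52, 7.43, 6.29 and 6.62 in DMSO and 6.34, 7.75 and 6.67 in silymarin. After 24 h it read 7.41, 7.47, 6.49, 7.33 and 7.21 in DMSO and 6.64, 7.42 and 7.37 in silymarin. Every group held low and high arrays, and the labelled groups overlapped at each time. The standard deviation of TXNIP within groups was 0.49, larger than that of 99.5% of genes. Its silymarin difference was 0.02 (SE 0.31) at 4 h, with a 95% confidence interval from -0.62 to 0.66. At 8 h the difference was below 0.01 in size (SE 0.32), with an interval from -0.67 to 0.66. At 24 h it was -0.04 (SE 0.32), with an interval from -0.70 to 0.62. Intervals this wide hold sizeable changes in both directions, so a moderate change of TXNIP was not detectable with these arrays. The sign of each TXNIP difference turned when the high-DDIT4 arrays were left out, to -0.17 at 4 h, 0.27 at 8 h and 0.04 at 24 h, none of which passed limma's test (smallest unadjusted p = 0.217). It turned too with the DDIT4 side as a term, to -0.19, 0.05 and 0.08 (SE 0.13).

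**Figure D1:**
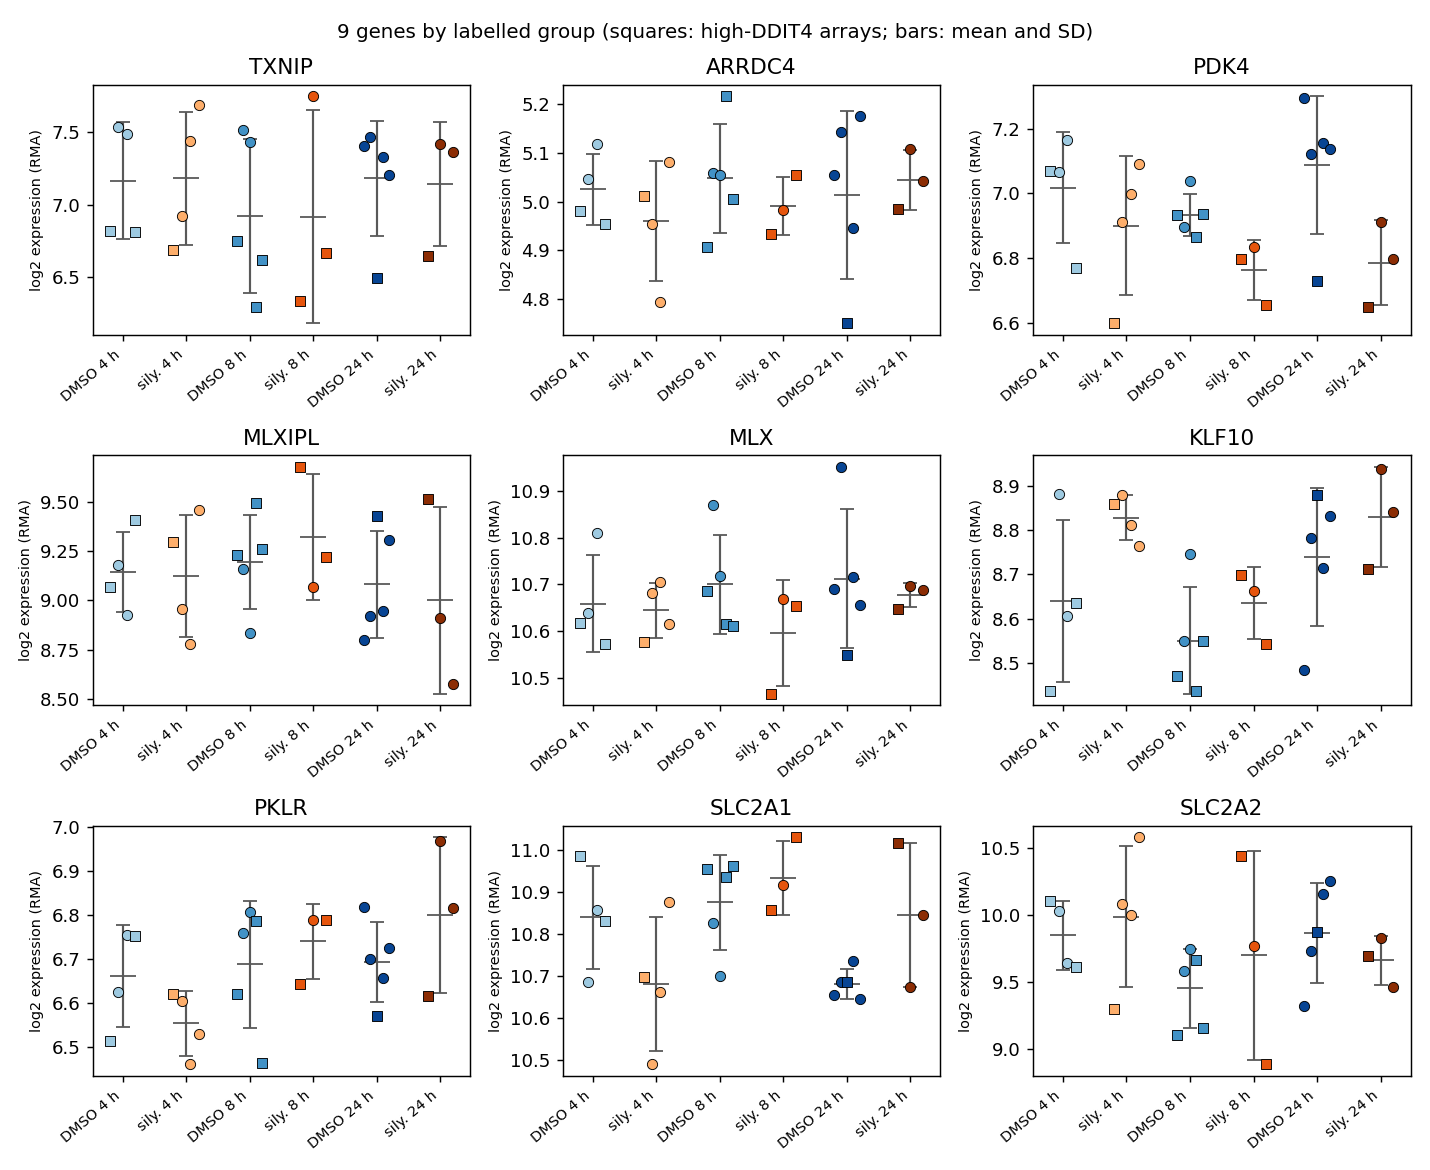
Log2 expression (vertical axes, RMA values, a separate scale in each panel) of the 9 genes in the 6 labelled groups. Each point is an array, squares are the 10 arrays with DDIT4 of 9.67 or more, and bars give the group mean and SD. In the TXNIP panel the squares lie between 6.29 and 6.82 and the circles between 6.92 and 7.75, whatever the label.

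The low TXNIP arrays were the arrays in which stress genes were high. TXNIP lay between 6.29 and 6.82 in the 10 high-DDIT4 arrays (median 6.66) and between 6.92 and 7.75 in the other 14 (median 7.43), without overlap. The low-DDIT4 array nearest the boundary was silymarin replicate 2 at 4 h, with TXNIP at 6.92, DDIT4 at 7.60 and ATF4 at 11.59. The low-DDIT4 array with the highest ATF4, silymarin replicate 3 at 24 h (11.68), had TXNIP at 7.37, near the median of its side. ATF4, the central transcription factor of the integrated stress response, ran from 11.24 to 11.68 in the low-DDIT4 arrays and from 11.81 to 12.09 in the high ones. CHAC1, an ATF4-driven enzyme that degrades glutathione, ran from 8.13 to 9.35 and from 10.34 to 11.22. ASNS, the asparagine synthetase, ran from 9.33 to 10.13 and from 10.49 to 11.26. Each of these 3 stress genes separated the same arrays as DDIT4 did, and TXNIP was low where they were high. Genes outside the listed stress response did so too. The thioredoxin reductase gene TXNRD1 ran from 10.45 to 10.63 in the low-DDIT4 arrays and from 10.69 to 11.01 in the high ones. YJU2 ran from 9.38 to 9.68 and from 9.18 to 9.37. Both were named because they followed TXNIP closely, so they are no sample of other genes. The share of all genes that separated these arrays was not counted. How unusual the separation of TXNIP is among genes therefore cannot be said.

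**Figure D2:**
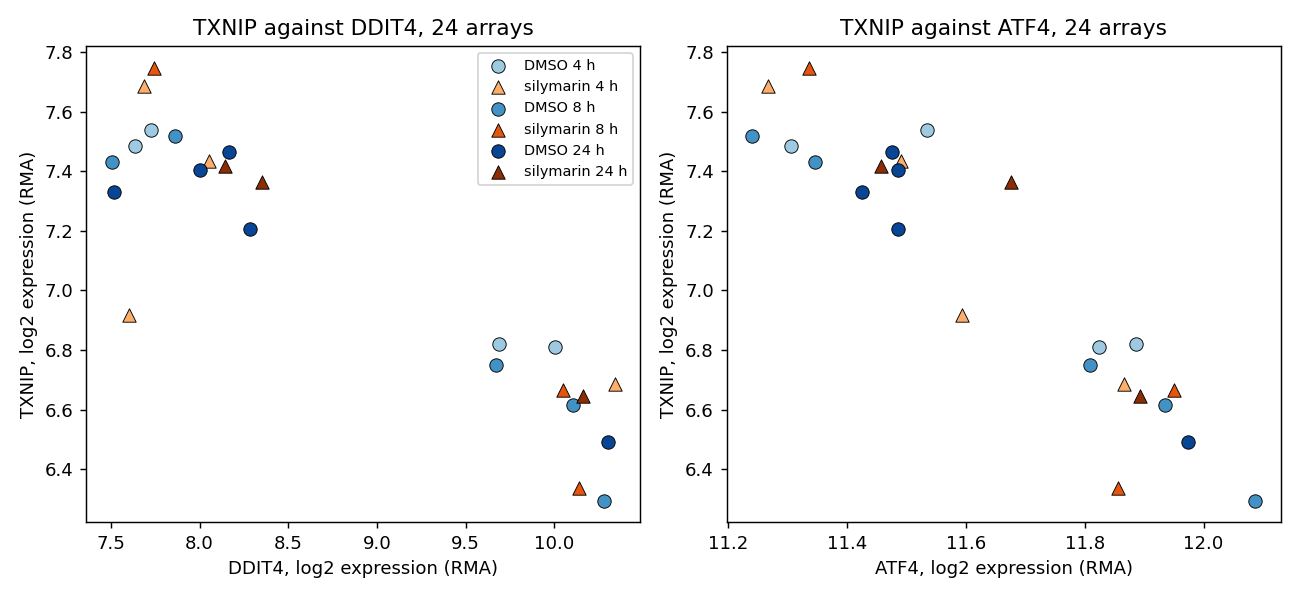
TXNIP (vertical axes) against DDIT4 (left) and ATF4 (right), all in log2 expression, for the 24 arrays. Blue circles are DMSO and orange triangles silymarin, darker with time. The arrays fall into 10 with DDIT4 of 9.67 or more and 14 with DDIT4 of 8.35 or less, each with arrays of both treatments.

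Because the arrays fall into separate sets, relations with TXNIP were also examined inside each set, on the log2 values, for 10 genes in both sets (20 relations). The relation of ATF4 to TXNIP was negative in both. In the 10 high-DDIT4 arrays Pearson's r was -0.64 (permutation p = 0.0461, Spearman's rho -0.60 with permutation p = 0.0740), and -0.77 without the 2 arrays farthest from the median of TXNIP. In the 14 low-DDIT4 arrays r was -0.60 (permutation p = 0.0205, rho -0.56 with permutation p = 0.0395), and -0.51 without the 2 farthest. After Benjamini-Hochberg adjustment over the 20 relations these p-values were 0.220 and 0.137, so neither passed. For DDIT4 itself r was -0.62 in the high-DDIT4 arrays (permutation p = 0.0550) and -0.09 in the low ones (permutation p = 0.783). Arrays of different labels and times are mixed within each set.

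To find which genes varied with TXNIP inside the labelled groups, TXNIP was entered as a covariate in limma beside the 6 group means, and every other gene was tested. Of 18273 genes, 2233 passed an adjusted p of 0.05 (12.2%), 1158 rising with TXNIP (6.34%) and 1075 falling (5.88%). Of the other 8 genes of interest 3 passed: PDK4 and MLX rose with TXNIP, and MLXIPL fell. When the side of the DDIT4 gap was added as a term, 0 genes passed in limma, 557 had an unadjusted p under 0.05 (3.05%), and 1 of these was a gene of interest, SLC2A1. Each association below was computed across that division of the arrays. Leaving out silymarin replicate 1 at 24 h reduced the 2233 calls to 1484.

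The integrated stress response moved opposite to TXNIP almost as a whole. Of its 20 listed genes, 19 passed with a negative slope (5.88% of all genes did) and 0 with a positive one, and the median slope was -0.65 log2 units per unit of TXNIP, against 0.02 over all genes. DDIT4 had a slope of -2.28 (SE 0.22), CHAC1 of -2.23 (SE 0.22), STC2 of -1.38 (SE 0.14), ASNS of -1.21 (SE 0.16) and ATF4 of -0.55 (SE 0.05). STC2 is a secreted glycoprotein of the stress response. The listed gene that did not pass was ATF5, at 0.10 (SE 0.07). This list is not independent of the division. DDIT4 is in it, its members ATF4, CHAC1 and ASNS separated the same arrays, and lists were chosen with earlier results known. The count of 19 is therefore no separate support for a relation with TXNIP.

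PDK4 was lower in the arrays where TXNIP was low. Its slope on TXNIP was 0.22 (SE 0.06, limma adjusted p = 0.0148 over all genes). PDK4 ranged from 6.60 to 7.07 in the high-DDIT4 arrays (median 6.78) and from 6.80 to 7.29 in the others (median 7.05), with overlap. The slope was below 0.01 (SE 0.14) with the DDIT4 side as a term. Without DMSO replicate 3 at 24 h the slope was 0.17 and the call was lost (limma adjusted p = 0.0613). With the replicate number as a block the slope was 0.29 and the call was lost as well (limma adjusted p = 0.0576).

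Within the pyruvate dehydrogenase list of 13 measured genes, 3 passed, all rising with TXNIP, as 6.34% of all genes did. They were PDK4, PDK2 and DLAT, the acetyltransferase subunit of the complex. DLAT had a slope of 0.27 (SE 0.07, limma adjusted p = 0.0139) and PDK2, another kinase of the complex, of 0.16 (SE 0.05, limma adjusted p = 0.0433). The median slope of the list was 0.04. Of 23 fasting and PPARA-linked genes, 2 passed, PDK4 and the glucocorticoid receptor NR3C1 at 0.23 (SE 0.07), both rising with TXNIP. That share lies near the 6.34% of all genes that rose. PPARGC1A, a coactivator of the fasting response, had a slope of -0.30 (SE 0.10, limma adjusted p = 0.0525).

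PDK4 had the lower mean in silymarin at all 3 times, although no difference passed the test over all genes. At 4 h it read 7.07, 7.07, 7.16 and 6.77 in DMSO and 6.60, 6.91, 6.998 and 7.09 in silymarin. The 8 h values were 6.93, 6.90, 7.04, 6.87 and 6.93 in DMSO and 6.80, 6.83 and 6.66 in silymarin. The 24 h values were 7.29, 7.12, 6.73, 7.16 and 7.14 in DMSO and 6.65, 6.91 and 6.80 in silymarin. The groups overlapped at 4 h and at 24 h, where DMSO replicate 3, a high-DDIT4 array, was the low DMSO value. At 8 h all 3 silymarin arrays lay below all 5 DMSO arrays, as did 1.99% of genes in that direction (2.93% in either), and PDK4 was the only gene of the 9 whose groups did not overlap at any time. At 4 h 2.18% and at 24 h 1.95% of all genes did not overlap.

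The PDK4 difference was -0.12 (SE 0.11, unadjusted p = 0.289) at 4 h, -0.17 (SE 0.11, unadjusted p = 0.141) at 8 h and -0.30 (SE 0.11, unadjusted p = 0.0129) at 24 h. The 24 h value had a 95% confidence interval of -0.53 to -0.07, and its p was at rank 115 of 18274. Over all genes limma's adjusted p was 0.9999, 0.991 and 0.9997. Fitted with the DDIT4 side, the differences were -0.17 (SE 0.08, limma unadjusted p = 0.0431), -0.16 (SE 0.08, limma unadjusted p = 0.0720) and -0.27 (SE 0.08, limma unadjusted p = 0.0033), none of which passed adjustment. From 4 h to 24 h the difference changed by -0.18 (SE 0.16), which did not pass (limma adjusted p = 0.9999). Leaving out 1 array at a time moved the 24 h value between -0.39 (without DMSO replicate 3) and -0.23 (without silymarin replicate 1). Without the 10 high-DDIT4 arrays it was -0.32 (limma unadjusted p = 0.0014, adjusted p = 0.895).

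Averaged over the 3 times, a comparison added after the data were seen, PDK4 differed by -0.20 (SE 0.06, limma unadjusted p = 0.0053, adjusted p = 0.9999), at rank 27 of all genes by p. With the DDIT4 side as a term the average was -0.20 (SE 0.05, limma unadjusted p = 0.0003, adjusted p = 0.997), at rank 3. The estimate was the same to 2 decimals with and without the term. In each of the 6 combinations of time and DDIT4 side the silymarin mean lay below the DMSO mean, by -0.32 to -0.08, as it did for 0.843% of all genes. These combinations hold only 1 to 4 arrays a label, and the high-DDIT4 one at 24 h sets 1 array against 1. The average lay between -0.23 and -0.16 with any 1 array left out. In this averaged comparison 2 of the 9 genes, PDK4 and KLF10, had an unadjusted p under 0.05, as did 2.83% of all genes, and 4.02% of all genes did with the DDIT4 side as a term.

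**Figure D3:**
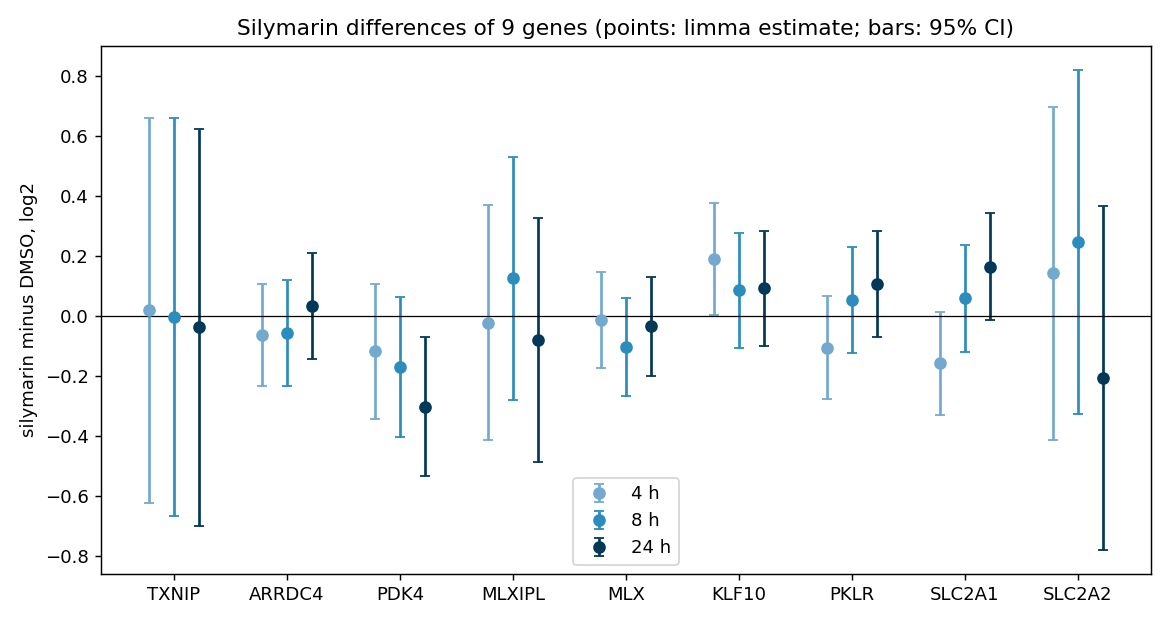
Silymarin minus DMSO difference in log2 expression (vertical axis) for the 9 genes at 4, 8 and 24 h. Points are limma estimates from 24 arrays and bars 95% confidence intervals. The PDK4 interval at 24 h, from -0.53 to -0.07, and the KLF10 interval at 4 h are the ones that leave out 0, and neither passed adjustment over all genes.

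In the 3 comparisons of silymarin with DMSO limma called 0 of the 9 genes and 0 of all genes (0%). At an unadjusted p under 0.05 it found 1 of 9 at 4 h (KLF10; 2.48% of all genes), 0 of 9 at 8 h (3.93%) and 1 of 9 at 24 h (PDK4; 3.03%). Once the DDIT4 side was a term, it found 1 of 9 at 4 h (PDK4; 3.04% of all genes), 0 of 9 at 8 h (5.35%) and 1 of 9 at 24 h (PDK4; 4.37%). The median difference of the 9 genes was -0.02, 0.05 and -0.04, with 3, 5 and 4 of them above 0. Over all genes the medians were -0.01, -0.02 and 0.01, with 47.5%, 42.0% and 56.0% above 0.

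Among the sensors, MLXIPL ran opposite to TXNIP and MLX ran with it. At 4 h MLXIPL read 9.07, 9.18, 8.93 and 9.41 in DMSO and 9.30, 8.96, 8.78 and 9.46 in silymarin. At 8 h it read 9.23, 9.16, 8.83, 9.50 and 9.26 in DMSO and 9.68, 9.07 and 9.22 in silymarin. At 24 h it read 8.80, 8.92, 9.43, 8.95 and 9.31 in DMSO and 9.51, 8.91 and 8.57 in silymarin. The highest MLXIPL value in each group but silymarin at 4 h came from a high-DDIT4 array. MLXIPL ranged from 9.07 to 9.68 in the high-DDIT4 arrays (median 9.35) and from 8.57 to 9.46 in the others (median 8.94). Its slope on TXNIP was -0.38 (SE 0.10, limma adjusted p = 0.0196). The call was lost without DMSO replicate 3 at 24 h (slope -0.36, limma adjusted p = 0.0521) and without silymarin replicate 1 at 24 h (slope -0.31, limma adjusted p = 0.0567). With the replicate number as a block it was lost too (slope -0.33, limma adjusted p = 0.158). With the DDIT4 side as a term the slope was -0.06 (SE 0.26).

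Inside the 10 high-DDIT4 arrays MLXIPL and TXNIP were related with r = -0.73 (permutation p = 0.0158, rho -0.70 with permutation p = 0.0307, adjusted p = 0.137 over 20 relations). Without the 2 arrays farthest from the median of TXNIP, r was -0.48. In the 14 low-DDIT4 arrays r was 0.26 (permutation p = 0.360). The silymarin difference of MLXIPL was -0.02 at 4 h, 0.12 at 8 h and -0.08 at 24 h (SE 0.19 to 0.20), with overlapping groups at each time. It was 0.07, 0.10 and -0.13 (SE 0.15) with the DDIT4 side as a term.

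MLX, the partner that both MLXIP and MLXIPL need, was 1 of the steadier members, with a standard deviation within groups of 0.11. At 4 h it read 10.62, 10.64, 10.81 and 10.57 in DMSO and 10.58, 10.68, 10.70 and 10.62 in silymarin. After 8 h the values were 10.69, 10.87, 10.72, 10.62 and 10.61 in DMSO and 10.46, 10.67 and 10.65 in silymarin. After 24 h the values were 10.69, 10.95, 10.55, 10.72 and 10.65 in DMSO and 10.65, 10.70 and 10.69 in silymarin. The labelled groups overlapped, and the lowest value of each group was from a high-DDIT4 array. The silymarin differences of MLX were -0.01, -0.10 and -0.04 (SE 0.08), and -0.05, -0.10 and -0.02 (SE 0.07) with the DDIT4 side as a term. The slope of MLX on TXNIP was 0.14 (SE 0.04, limma adjusted p = 0.0318). This call was lost in 5 of 24 fits that left out 1 array (limma adjusted p from 0.0520 to 0.0886): without DMSO replicate 3 at 4 h, DMSO replicate 2 or 4 or silymarin replicate 1 at 8 h, or DMSO replicate 3 at 24 h. It was also lost when arrays were re-centred to 1 median (limma adjusted p = 0.0681) and with the replicate number as a block (slope 0.10, limma adjusted p = 0.400). Adding the DDIT4 side as a term gave MLX a slope of 0.10 (SE 0.11, limma adjusted p = 0.9999). Between MLX and TXNIP r was 0.49 inside the high-DDIT4 arrays and 0.05 inside the low-DDIT4 arrays. MLXIP, the MondoA gene, had a slope of 0.04 (SE 0.05, limma adjusted p = 0.717).

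In the wider MAX and MLX network of 12 genes, 2 passed with a positive slope and 4 with a negative one, against 6.34% and 5.88% of all genes. MYC, whose protein pairs with MAX, fell with TXNIP at -0.65 (SE 0.08), and MXD1, an antagonist of MYC, fell at -0.41 (SE 0.07). MYCN rose at 0.46 (SE 0.10). MYC ranged from 10.60 to 11.08 in the high-DDIT4 arrays and from 9.83 to 10.67 in the others.

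**Figure D4:**
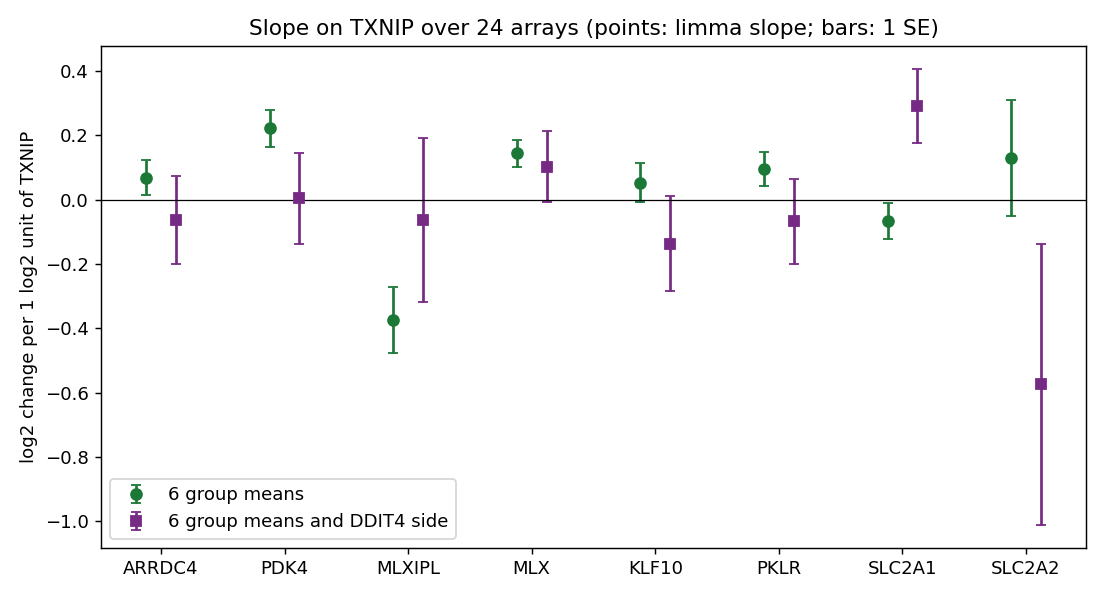
Slope of each gene on TXNIP (vertical axis, log2 change per log2 unit of TXNIP) over 24 arrays. Circles are limma slopes with the 6 group means, squares those with the DDIT4 side added, and bars 1 SE. The PDK4 slope goes from 0.22 to below 0.01 and the SLC2A1 slope from -0.07 to 0.29 when the side is added.

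The slopes of the sugar-responsive targets ARRDC4, PKLR and KLF10 on TXNIP did not pass, which does not settle whether they moved together. ARRDC4, the paralogue of TXNIP, lay between 4.75 and 5.22 in all arrays, below the lower quartile of every array (5.42 to 5.57), so its signal was dim. Its slope on TXNIP was 0.07 (SE 0.05, limma adjusted p = 0.474). Its silymarin differences were -0.06, -0.06 and 0.03 at 4, 8 and 24 h (SE 0.08 to 0.09), and -0.08, -0.05 and 0.04 (SE 0.08) with the DDIT4 side as a term. At so dim a signal the range of ARRDC4 says little about its transcript.

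PKLR read 6.51, 6.62, 6.75 and 6.75 in DMSO and 6.62, 6.60, 6.46 and 6.53 in silymarin at 4 h. After 8 h it read 6.62, 6.76, 6.81, 6.79 and 6.46 in DMSO and 6.64, 6.79 and 6.79 in silymarin. After 24 h it read 6.82, 6.70, 6.57, 6.66 and 6.72 in DMSO and 6.61, 6.97 and 6.81 in silymarin. The groups overlapped throughout, with differences of -0.11, 0.05 and 0.11 (SE 0.08 to 0.09), and -0.13, 0.06 and 0.12 (SE 0.08) with the DDIT4 side as a term. From 4 h to 24 h the difference of PKLR changed by 0.21 (SE 0.12, limma unadjusted p = 0.0882, adjusted p = 0.9999). With the DDIT4 side as a term the change was 0.25 (SE 0.11, limma unadjusted p = 0.0316, adjusted p = 0.962), and without the high-DDIT4 arrays 0.32 (limma unadjusted p = 0.0125, adjusted p = 0.9998). The slope of PKLR on TXNIP was 0.09 (SE 0.05, limma adjusted p = 0.275).

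KLF10 had the higher mean in silymarin at all 3 times. At 4 h it read 8.44, 8.88, 8.61 and 8.64 in DMSO and 8.86, 8.88, 8.81 and 8.77 in silymarin. The 8 h values were 8.47, 8.55, 8.75, 8.44 and 8.55 in DMSO and 8.70, 8.66 and 8.54 in silymarin. The 24 h values were 8.48, 8.78, 8.88, 8.72 and 8.83 in DMSO and 8.71, 8.94 and 8.84 in silymarin. The 4 silymarin arrays at 4 h were close together, and DMSO replicate 2 was above all of them. The differences were 0.19 (SE 0.09, limma unadjusted p = 0.0462), 0.08 (SE 0.09) and 0.09 (SE 0.09), and limma's adjusted p at 4 h was 0.9999. Averaged over the times the difference was 0.12 (SE 0.05, limma unadjusted p = 0.0311, adjusted p = 0.9999). The differences with the DDIT4 side as a term were 0.17 (SE 0.09, limma unadjusted p = 0.0651), 0.09 (SE 0.09) and 0.10 (SE 0.09), and the average was 0.12 (SE 0.05, limma unadjusted p = 0.0281, adjusted p = 0.997). Without the high-DDIT4 arrays the 4 h value was 0.08 and the average 0.09 (limma unadjusted p = 0.507 and 0.221). The slope of KLF10 on TXNIP was 0.05 (SE 0.06, limma adjusted p = 0.643).

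Of 22 measured targets of MLXIPL besides TXNIP, 1 passed with a positive slope on TXNIP and 3 with a negative one, and the median slope was 0.01. ELOVL6, a fatty acid elongase, rose at 0.41 (SE 0.11). BHLHE40, a repressor of the clock, fell at -0.37 (SE 0.09), ACACB, an acetyl-CoA carboxylase, at -0.25 (SE 0.07), and ME1, malic enzyme, at -0.15 (SE 0.04). These 4 of 22 stand beside 12.2% of all genes. In the KLF family of 17 genes 2 passed with a positive slope and 1 with a negative one, against 6.34% and 5.88% of all genes. The 2 were KLF11 at 0.25 (SE 0.07) and KLF16 at 0.17 (SE 0.05). The 1 was KLF15, a fasting factor of liver, at -0.55 (SE 0.09).

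The GLUT1 gene SLC2A1 had a silymarin difference that went from below 0 to above 0 along the time course. At 4 h it read 10.99, 10.69, 10.86 and 10.83 in DMSO and 10.70, 10.49, 10.66 and 10.88 in silymarin. At 8 h it read 10.96, 10.83, 10.70, 10.94 and 10.96 in DMSO and 10.86, 10.92 and 11.03 in silymarin. At 24 h it read 10.65, 10.69, 10.69, 10.74 and 10.64 in DMSO and 11.02, 10.67 and 10.85 in silymarin. The 5 DMSO arrays at 24 h were close together, and silymarin replicate 2 fell among them while the other two were above. The differences were -0.16 (SE 0.08), 0.06 (SE 0.09) and 0.16 (SE 0.09), and -0.13, 0.05 and 0.15 (SE 0.08) with the DDIT4 side as a term. The change from 4 h to 24 h was 0.32 (SE 0.12, limma unadjusted p = 0.0132, adjusted p = 0.9999), and 3.02% of all genes had an unadjusted p under 0.05 in that comparison. With the DDIT4 side as a term the change was 0.28 (SE 0.11, limma unadjusted p = 0.0180, adjusted p = 0.962), and in that fit 2 of the 9 genes, SLC2A1 and PKLR, and 4.44% of all genes had an unadjusted p under 0.05. Without the high-DDIT4 arrays the change was 0.17 (limma unadjusted p = 0.249). In DMSO alone SLC2A1 differed by -0.16 (SE 0.08, limma unadjusted p = 0.0569) between 24 h and 4 h.

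SLC2A1 was in the upper part of its range in most high-DDIT4 arrays, from 10.69 to 11.03 (median 10.95), against 10.49 to 10.92 in the others (median 10.69). Its slope on TXNIP was -0.07 (SE 0.06, limma adjusted p = 0.492), and with the DDIT4 side as a term it was 0.29 (SE 0.12, limma unadjusted p = 0.0193, adjusted p = 0.9999). In the 14 low-DDIT4 arrays SLC2A1 and TXNIP rose together, with r = 0.80 (permutation p = 0.00064, rho 0.67 with permutation p = 0.0098, adjusted p = 0.0128 over 20 relations). Without the 2 arrays farthest from the median of TXNIP r was 0.52, and in the 10 high-DDIT4 arrays it was 0.17 (permutation p = 0.662). The relation in the low-DDIT4 arrays was the only 1 of the 20 that passed adjustment. Group means were not removed for these relations, so differences between labels and times enter them. Silymarin replicate 2 at 4 h had the lowest value of both genes among the low-DDIT4 arrays (TXNIP 6.92, SLC2A1 10.49).

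SLC2A2, the GLUT2 gene, was the member with the widest range after all arrays were counted, 1.70 log2 units, and its standard deviation within groups of 0.42 was larger than that of 99.2% of genes. At 4 h it read 10.10, 10.03, 9.64 and 9.61 in DMSO and 9.29, 10.08, 9.996 and 10.58 in silymarin. After 8 h the values were 9.10, 9.58, 9.74, 9.66 and 9.16 in DMSO and 10.44, 9.77 and 8.88 in silymarin. After 24 h the values were 9.32, 9.73, 9.87, 10.16 and 10.25 in DMSO and 9.69, 9.82 and 9.46 in silymarin. The lowest and the highest silymarin arrays at 8 h were both high-DDIT4 arrays, so the spread of SLC2A2 did not follow that division. The silymarin differences were 0.14 (SE 0.27), 0.25 (SE 0.28) and -0.21 (SE 0.28), and 0.09, 0.26 and -0.18 (SE 0.26 to 0.27) with the DDIT4 side as a term. Its slope on TXNIP was 0.13 (SE 0.18, limma adjusted p = 0.708).

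Across the hexose transporters 0 of 16 genes passed for TXNIP, and the smallest p belonged to SLC2A14 (slope 0.30, SE 0.10, limma adjusted p = 0.0554). At an unadjusted p under 0.05 silymarin differences were found for 3 of 16 at 4 h, SLC2A6 (0.26, SE 0.10), SLC5A2 (-0.17, SE 0.08) and SLC2A8 (0.16, SE 0.08), where 2.48% of all genes had one. At 8 h there was 1 of 16, SLC2A7 (0.20, SE 0.07), against 3.93% of all genes, and at 24 h 0 of 16 against 3.03%. Each had a limma adjusted p of 0.991 or more. Of all genes 12.2% passed for TXNIP, and the shares in the glycolysis and gluconeogenesis lists were no higher. Of 24 glycolysis and lactate genes 2 passed, PKM rising at 0.15 (SE 0.05) and PFKFB2, which makes the activator of phosphofructokinase, falling at -0.38 (SE 0.10). For silymarin, 2 of these 24 genes at 4 h, 2 at 8 h and 1 at 24 h had an unadjusted p under 0.05 in limma. The shares of all genes were 2.48%, 3.93% and 3.03%. The 1 at 24 h was HK2, a hexokinase, with a difference of 0.31 (SE 0.10, limma unadjusted p = 0.0061, adjusted p = 0.9997). Of 20 gluconeogenesis and glycogen genes 2 passed, both falling with TXNIP: PCK2, the mitochondrial PEP carboxykinase, at -1.09 (SE 0.14) and the glycogen primer GYG1 at -0.17 (SE 0.05). PCK1, the cytosolic form, had a slope below 0.01 in size (SE 0.05). PCK2 is a known target of ATF4, and whether that bears on its slope was not tested.

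The smaller lists stand beside the same 12.2% of all genes. Among pentose phosphate and hexosamine genes 1 of 11 passed, OGT, which attaches N-acetylglucosamine to proteins, falling at -0.31 (SE 0.06). Among AMPK subunits and their upstream kinases 1 of 11 passed, PRKAG1 at -0.33 (SE 0.06). Among 14 other arrestin-domain and thioredoxin genes, thioredoxin reductase TXNRD1 fell at -0.36 (SE 0.05) and the arrestin ARRB1 rose at 0.23 (SE 0.05). Of 14 hepatocyte markers 0 passed, with a median slope of -0.04. Of the markers of other cell types 4 passed, all rising with TXNIP as 6.34% of all genes did: 1 of 11 endothelial, 2 of 10 fibroblast and stellate and 1 of 6 cholangiocyte genes, and none of 10 leukocyte genes. With the DDIT4 side as a term, 0 genes passed in any of these lists.

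In the DMSO arrays limma called 0 of the 9 genes and 0 of all genes (0%) between 4 h and 8 h or 24 h, where 6.50% and 1.70% of genes had an unadjusted p under 0.05. The differences of TXNIP from 4 h were -0.24 (SE 0.29) at 8 h and 0.02 (SE 0.29) at 24 h, and -0.16 (SE 0.12) and -0.24 (SE 0.12) with the DDIT4 side as a term. SLC2A2 differed by -0.40 (SE 0.25) at 8 h. When the 6 group means were put in order for each of the 9 genes, no gap between neighbours was larger than the SD of the wider group. For TXNIP the order ran from silymarin at 8 h (6.92 ± 0.74, SD, n = 3) and DMSO at 8 h (6.92 ± 0.53, SD, n = 5) through silymarin at 24 h (7.14 ± 0.43, SD, n = 3), DMSO at 4 h (7.16 ± 0.40, SD, n = 4) and DMSO at 24 h (7.18 ± 0.40, SD, n = 5) to silymarin at 4 h (7.18 ± 0.46, SD, n = 4).

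The genes whose deviations from the 6 group means were most like those of TXNIP over 24 arrays were YJU2 (r = 0.90), SMNDC1, HOXC9, PTPN9, DTX4 and BCL9 (r = 0.87). The most opposite were ATF4 (r = -0.94), DDIT4, CHAC1, C2orf74-DT, HSPA13 and HERPUD1 (r = -0.91). These values span both sets of arrays, and inside the 14 low-DDIT4 arrays r was 0.32 for YJU2 and -0.60 for ATF4. For some other members r was high inside each set as well. Their neighbours were picked by r over the same 24 arrays, so these values are no separate test. MLXIPL was most like TPP1, a lysosomal peptidase (r = 0.91 over all arrays, 0.87 in the high-DDIT4 and 0.80 in the low-DDIT4 arrays), then SMPD1, the lysosomal sphingomyelinase (r = 0.91), and OGG1 (r = 0.90).

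SLC2A2 was most like CYB5A (r = 0.87, and 0.89 and 0.85 in the high- and low-DDIT4 arrays), CPN2 (r = 0.87) and the liver gap junction gene GJB1 (r = 0.86). KLF10 was most like HMGXB4, ACTN1 and BMP2 (r from 0.86 to 0.83). PDK4 was most like COIL (r = 0.85), but r was 0.27 in the low-DDIT4 arrays. The first neighbours of the rest were ZNF384 for MLX (r = 0.88), NUCB1 for SLC2A1 (r = 0.82), FAM162B for PKLR (r = 0.80) and FOXJ2 for ARRDC4 (r = 0.80). Among the 9 genes the r of largest size was -0.68, between KLF10 and SLC2A1. With TXNIP r was 0.67 for PDK4, 0.66 for MLX, -0.62 for MLXIPL and 0.29 for ARRDC4. It was -0.60 between MLXIPL and MLX, and 0.55 between ARRDC4 and PKLR. These correlations are descriptions of 24 arrays that share 1 normalization.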

How the data were processed

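Per the labels' protocols, total RNA of Huh7.5.1 cells was run on Human Gene 1.0 ST arrays by a core facility. The deposited values are log2 expression; the submitters' processing notes name RMA and oligo, without versions. RMA subtracts background, normalizes by quantiles and summarises probes, so a change shared by most genes is removed. Platform annotation gave 19302 of 28869 probe sets 1 gene symbol; the brightest of a gene was kept, leaving 18274 genes. The genome build of the files is not given in the sources used here.

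One limma model (limma 3.58.1, R 4.3.3) with 6 group means was fitted to 24 arrays; tests were two-sided, with Benjamini-Hochberg adjustment over all genes and a threshold of 0.05. A second fit added TXNIP as a covariate. Permutation tests drew 100000 permutations. In simulated data 94.5% of 200 slopes of 0.5 were recovered among 18273 genes. The simulated noise was independent between genes and held no DDIT4 division. The largest member slope in size was -0.38 (MLXIPL), so this rate does not describe the member slopes.

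Named genes were the 9 members, their nearest genes by correlation among genes brighter than the median, and list members with the smallest p. Members and lists were chosen with earlier results of these data known. Of 286 list entries 265 were measured, and the rest were not analysed here. Alternatives were re-centring, cyclic loess, leaving out dim genes, mean probe sets, variance settings, array weights, fitting only the groups compared, the replicate block and leaving out each array. Those using DDIT4, and the average over times, were chosen after seeing the data. The labels used here do not say whether equal replicate numbers pair samples, and the numbers were not taken as pairs.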

Additional observations from a re-analysis of the deposited data

Results flagged for a closer look

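Among 36 combinations of gene and labelled group with 4 or 5 arrays, 1 held an array far from the rest: TXNIP in DMSO replicate 3 at 24 h was 6.49, while the other 4 arrays lay between 7.21 and 7.47. The gap was 0.735 of the whole range of the group, above the limit of 0.710 for 5 arrays. Chance alone marks about 1 in 20 such groups. The same array was the high-DDIT4 array of its group.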

How the results depend on the processing

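The counts of genes called were 0 in every comparison of labelled groups under every alternative run, except that cyclic loess called 1 gene at 24 h, which is none of the 9. For the association with TXNIP 2233 genes were called, 252 with the replicate number as a block (250 of them among the 2233), 0 with the DDIT4 side as a term, and 1484 to 2752 with 1 array left out. The block also ended the calls of PDK4 (slope 0.29, limma adjusted p = 0.0576), MLXIPL (-0.33, 0.158) and MLX (0.10, 0.400), and it changed no call between labelled groups. Deviations of same-numbered arrays correlated between -0.14 and 0.43. The numbers were not taken as pairs, although the DDIT4 division followed them in part, so pairing was not settled. The other alternatives gave 1748 to 2507 calls.

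The values whose sign turned were all uncalled, before and after. The cause was not tested. With arrays re-centred to 1 median, at 4 h MLX was 0.0054, at 8 h TXNIP was 0.0022, between DMSO at 8 h and 4 h ARRDC4 was -0.011 and PKLR was -0.0085. With cyclic loess, at 8 h TXNIP was 0.017, at 24 h ARRDC4 was -0.0022, between DMSO at 8 h and 4 h ARRDC4 was -0.022 and PKLR was -0.034. With array weights, at 8 h TXNIP was 0.38 and MLXIPL was -0.012, between DMSO at 8 h and 4 h ARRDC4 was -0.0025, between DMSO at 24 h and 4 h ARRDC4 was 0.0014. Without the high-DDIT4 arrays, at 4 h TXNIP was -0.17 and MLXIPL was 0.012, at 8 h TXNIP was 0.27, at 24 h TXNIP was 0.038 and ARRDC4 was -0.0047, between DMSO at 8 h and 4 h ARRDC4 was -0.026, MLXIPL was -0.055 and SLC2A1 was -0.0086, between DMSO at 24 h and 4 h TXNIP was -0.16 and KLF10 was -0.039. With the DDIT4 side as a term, at 4 h TXNIP was -0.19 and MLXIPL was 0.069, at 8 h TXNIP was 0.052, at 24 h TXNIP was 0.075, between DMSO at 24 h and 4 h TXNIP was -0.24, MLXIPL was 0.046 and SLC2A2 was -0.046. Slopes on TXNIP under the same setting were -0.063 for ARRDC4, -0.14 for KLF10, -0.068 for PKLR, 0.29 for SLC2A1 and -0.57 for SLC2A2. With the replicate block, at 24 h MLXIPL was 0.025. Slopes on TXNIP under the same setting were -0.044 for KLF10 and 0.019 for SLC2A1. With 1 array left out, differences ranged at 4 h TXNIP from -0.15 to 0.18, MLX from -0.044 to 0.036, MLXIPL from -0.13 to 0.091 and SLC2A2 from -0.055 to 0.37; at 8 h TXNIP from -0.42 to 0.29, PKLR from -0.0035 to 0.10, MLXIPL from -0.054 to 0.25 and SLC2A2 from -0.12 to 0.65; at 24 h TXNIP from -0.21 to 0.21, MLX from -0.076 to 0.025, ARRDC4 from -0.035 to 0.072 and MLXIPL from -0.34 to 0.13; between DMSO at 8 h and 4 h PKLR from -0.023 to 0.082, SLC2A1 from -0.016 to 0.085, MLXIPL from -0.024 to 0.14, ARRDC4 from -0.019 to 0.059 and MLX from -0.0017 to 0.091; between DMSO at 24 h and 4 h TXNIP from -0.10 to 0.19, PKLR from -0.016 to 0.064, ARRDC4 from -0.052 to 0.055, SLC2A2 from -0.077 to 0.16, PDK4 from -0.012 to 0.16, MLXIPL from -0.15 to 0.023 and MLX from -0.0063 to 0.10.

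The limits are few arrays and a wide spread. Groups hold 3 to 5 arrays, the division by DDIT4 crosses every group, and its cause was not tested. RMA can compress differences of dim genes such as ARRDC4, and array values give no transcript counts. The mean levels of TXNIP (7.09), PDK4 (6.93) and PKLR (6.68) also lay below that of the median gene (7.90).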
